A study of Homo sapiens with 12 samples.

Results

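ISG15 and the enzymes that attach it to proteins and remove it were followed in HT1080, an established human cell line that grew out of a fibrosarcoma and carries mutant NRAS. The genes were taken by symbol: ISG15, UBA7, UBE2L6, HERC5, HERC6 and USP18, which are 6 of the 56227 entries of the deposited expression table. The 12 libraries form 4 groups of 3. Cells had received either a control siRNA (siNC) or an siRNA against the NRAS Q61K mutant (siQ61K), and with each siRNA either DMSO or poly(dA:dT), a synthetic DNA duplex recognised by DNA sensors of the cytosol. All groups are the same line, and no group without siRNA was analysed here. The study's title places it in cGAS-STING signalling of NRAS-mutant tumours. The short column names of the table were assigned to siRNA and agent by elimination, an inference that the labels do not state. The labels name no separate cultures within a group, and the p-values therefore cover only the spread among these libraries, which may be technical.

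ISG15 is a small ubiquitin-like protein induced by interferon. It is joined to other proteins by a cascade like that of ubiquitin: UBA7 activates it (E1), UBE2L6 carries it (E2), and HERC5 transfers it to its targets as the main human ligase (E3). HERC6 is the closest relative of HERC5 and serves as the main ISG15 ligase in mice. USP18 cuts ISG15 off its targets and also binds an interferon receptor chain, where it dampens signalling. The genes of the cascade are themselves interferon-stimulated: ISGF3, an interferon-activated transcription factor complex, binds a GAAANNGAAA-type element in many such promoters.

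RefSeq windows of 250 bases upstream of the annotated start (build GRCh38.p14) were found for 4 of the 6 genes, and UBA7 and USP18 were not matched. The windows of ISG15 and of both HERC ligases are shown because the ligases rose together while their upstream letters differ, and because the ISG15 window can be set beside its low measured level. Capitals mark stretches matching GAAANNGAAA on either strand (read as TTTCNNTTTC when the match is on the reverse strand), the core of the interferon-stimulated response element.
ISG15 (chr1:1013247-1013496, plus strand): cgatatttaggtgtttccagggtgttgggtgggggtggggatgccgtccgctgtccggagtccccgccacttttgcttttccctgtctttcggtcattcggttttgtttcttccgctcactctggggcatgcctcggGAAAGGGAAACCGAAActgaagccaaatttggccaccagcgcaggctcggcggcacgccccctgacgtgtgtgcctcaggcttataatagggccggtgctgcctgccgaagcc
HERC5 (chr4:88456869-88457118, plus strand): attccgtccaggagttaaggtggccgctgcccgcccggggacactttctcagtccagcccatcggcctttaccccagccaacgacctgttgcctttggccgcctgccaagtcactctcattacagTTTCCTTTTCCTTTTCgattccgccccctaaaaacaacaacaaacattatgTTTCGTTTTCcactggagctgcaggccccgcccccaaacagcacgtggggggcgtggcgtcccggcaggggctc
HERC6 (chr4:88378602-88378851, plus strand): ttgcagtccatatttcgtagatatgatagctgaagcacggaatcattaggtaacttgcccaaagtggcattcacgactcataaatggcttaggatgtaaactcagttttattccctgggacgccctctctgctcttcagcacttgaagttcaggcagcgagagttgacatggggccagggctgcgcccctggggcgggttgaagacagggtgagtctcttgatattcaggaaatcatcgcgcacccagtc
The ISG15 window held 2 overlapping forward matches in 1 stretch, between 97 and 113 bases before the start. The HERC5 window held 3 reverse matches in 2 stretches, between 64 and 125 bases before the start. The HERC6 window and both UBE2L6 windows held none. Of all 35116 windows of this length, 1061 (3.02%) held at least 1 match. A match is a description of the letters, not a site.

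Expression is given in TPM, which scales each transcript's abundance by its length and the library total, so that different genes share a scale. The annotation behind the values is not given, and some common transcripts read low beside their kin (below). Comparisons of level between genes are therefore tentative. Fold changes are log2(TPM + 1) differences from 1 limma model of all 4 groups, with its standard error (SE) and a p adjusted by the Benjamini-Hochberg method over the 14722 genes tested. A gene is called at an adjusted p under 0.05. For genes of low level this scale shrinks the difference. NRAS itself read 59.6, 60.6 and 41.4 TPM in siNC DMSO against 15.5, 15.2 and 19.9 in siQ61K DMSO, and 43.0, 45.9 and 51.7 in siNC poly(dA:dT) against 20.1, 20.3 and 23.5 in siQ61K poly(dA:dT). NRAS was lower in every library labelled siQ61K than in any labelled siNC (log2 change -1.61 and -1.10). Of 10 mesenchymal markers, 9 reached 1 TPM in at least 1 library and THY1 did not. The 10 mesenchymal markers summed to between 7417 and 12590 TPM per library (8493 to 9254 in siNC DMSO, 8851 to 9648 in siNC poly(dA:dT), 9471 to 12590 in siQ61K DMSO and 7417 to 8751 in siQ61K poly(dA:dT)). Of 9 markers of other cell types in the table, 7 never reached 1 TPM, among them the leukocyte marker PTPRC. KRT8, at 330.9 to 570.6 TPM, and NCAM1, at 10.5 to 24.6 TPM, did. These 9 markers summed to between 343 and 587 TPM per library, mostly from KRT8. In bulk RNA, fewer cells expressing a gene and less RNA per cell cannot be told apart.

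ISG15, the modifier, was the lowest of the 6 genes in DMSO and was at or near 0 in most libraries. It was listed at 0 in all 3 siNC DMSO libraries. With siNC and poly(dA:dT) it read 0.414, 1.02 and 1.72 TPM. With siQ61K it read 0, 0.670 and 0 TPM in DMSO, then 0.424, 4.90 and 1.31 TPM with poly(dA:dT). ISG15 was listed above 0 in every poly(dA:dT) library and at 0 in 5 of the 6 DMSO libraries, but the 2 siRNAs overlapped within poly(dA:dT). The single reading of 4.90 TPM stood above the others of its group.

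**Figure D1:**
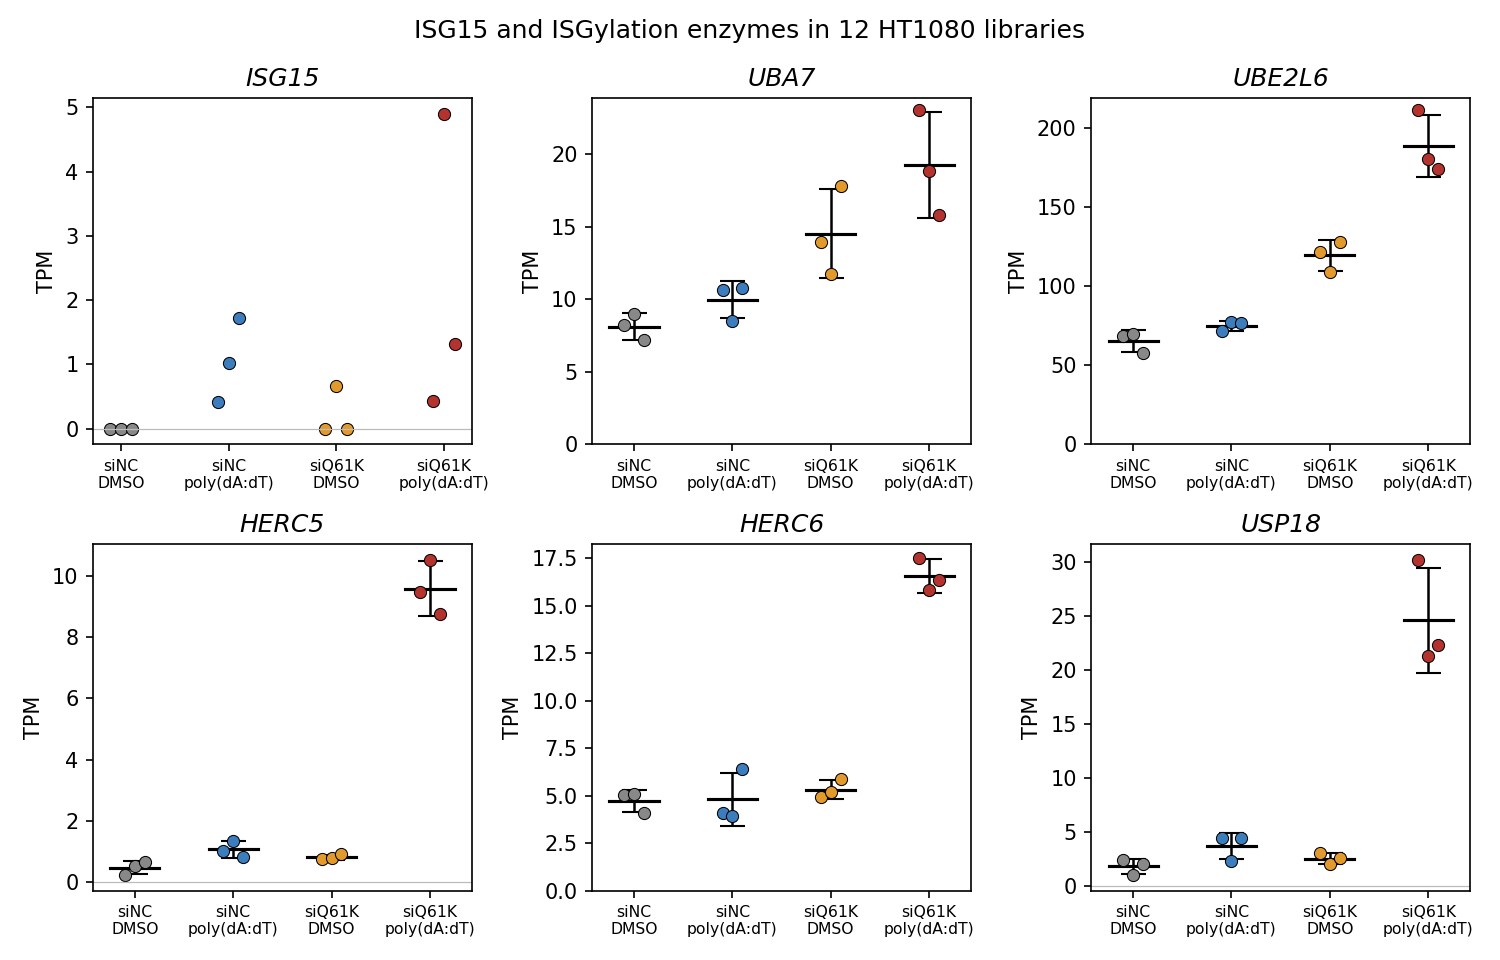
TPM (vertical axes, 1 scale per panel) of ISG15, UBA7, UBE2L6, HERC5, HERC6 and USP18 in each of the 12 libraries, grouped by siRNA and agent; points are libraries and, for the 5 enzymes, bars show the mean and SD (n = 3). UBA7 and UBE2L6 were already higher with siQ61K in DMSO, while HERC5, HERC6 and USP18 stood apart in siQ61K poly(dA:dT), and ISG15 did not exceed 4.90 TPM in any library.

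ISG15 reached 1 TPM in 4 libraries, all with poly(dA:dT), and entered the test only through them. In the model of all 4 groups, none of its differences within 1 siRNA or 1 agent passed the test, and the response under siQ61K lay near the threshold. The knockdown difference was 0.25 (SE 0.44, adjusted p = 0.709) in DMSO and 0.44 (SE 0.44, adjusted p = 0.513) with poly(dA:dT). The poly(dA:dT) difference was 0.98 (SE 0.44, adjusted p = 0.443) under siNC and 1.18 (SE 0.44, adjusted p = 0.0673) under siQ61K. No fold of mean TPM is given against siNC DMSO, where every library is at 0. Without the siQ61K poly(dA:dT) replicate 2 library, which holds the 4.90 TPM reading, the knockdown difference with poly(dA:dT) was -0.13, and without replicate 1 of that group the poly(dA:dT) difference under siQ61K was 1.64 and was called (adjusted p = 0.0108).

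ISG15 is usually among the most abundant interferon-stimulated transcripts, and in these libraries it was not. In siQ61K poly(dA:dT), where it was highest, its mean level was at or above that of 19.5% of the tested genes, against 95.4% for UBE2L6, 68.0% for USP18, 62.4% for UBA7, 59.0% for HERC6 and 46.6% for HERC5. In the same libraries IFIT1, an interferon-induced RNA-binding protein, read 542.1, 535.2 and 440.2 TPM, and IFI6, another interferon-stimulated gene, 1054, 1070 and 895.5 TPM. MX1, an interferon-induced antiviral GTPase, read 45.8, 33.0 and 29.5 TPM. Each of the 3 genes was thus far above ISG15 in every library of the group. Other listed genes were also low there. IFIH1 read 3.45, 2.76 and 1.01 TPM, and IRF7, of the interferon signalling list, 0.331, 0 and 0.155 TPM. IFI6, IFIH1, IRF7 and the reference genes that follow were chosen after their values were seen.

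**Figure D2:**
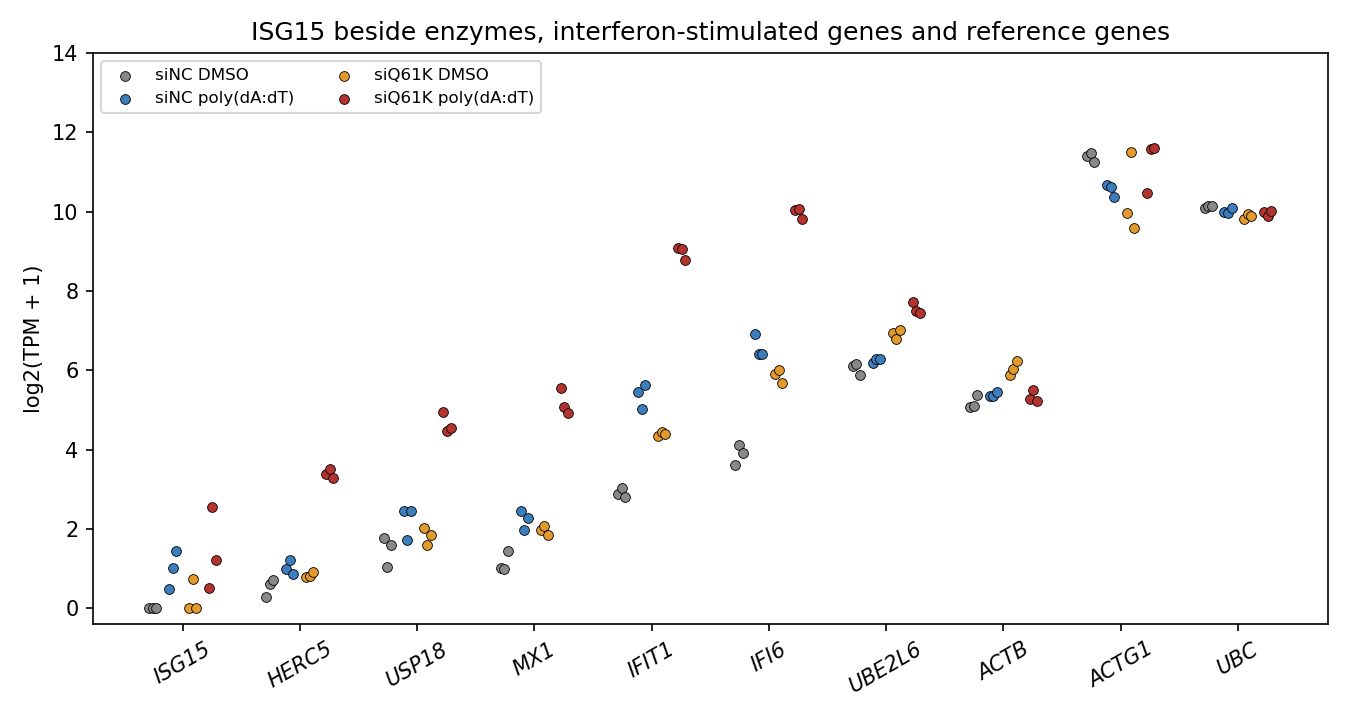
log2(TPM + 1) of ISG15, 3 of its enzymes, other interferon-stimulated genes and 3 reference genes, with 1 point per library and colour for the group. ISG15 lies below HERC5 and USP18 in each siQ61K poly(dA:dT) library, and IFIT1 and IFI6 rise far above it in the same libraries.

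A low listing was not general. All 19 genes on a list of reference genes used by every cell were above 0 in all 12 libraries, as were all 77 cytosolic ribosomal protein genes. Some common transcripts were nevertheless low beside their kin: ACTB (beta actin) read 32.7 to 74.1 TPM while ACTG1 (gamma actin) read 770.3 to 3102 TPM, and RPS27 read 23.3 to 47.4 TPM while the median of the ribosomal protein genes was 2975 TPM. None of the 757 stretches of 31 bases in the longest ISG15 transcript of GENCODE release 29 occurs in a transcript of another gene. On the opposite strand within the ISG15 span lie an antisense gene, AL645608.1, listed at 0 in 11 of 12 libraries, and a pseudogene, AL645608.3, at 0 in all 12. The annotation behind the deposited values is not given in the sources used here, and its part in the ISG15 level was not tested.

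UBA7, the activating enzyme, was higher with the NRAS siRNA whether or not poly(dA:dT) was given. It read 8.21, 8.96 and 7.17 TPM in siNC DMSO and 13.9, 11.8 and 17.8 in siQ61K DMSO. In poly(dA:dT) libraries it read 10.6, 8.48 and 10.8 TPM under siNC and 23.1, 18.8 and 15.8 under siQ61K. All siQ61K libraries lay above all siNC libraries, and within each siRNA the DMSO and poly(dA:dT) libraries overlapped. The means rose from 8.11 ± 0.901 to 14.5 ± 3.07 TPM in DMSO (SD, n = 3; log2 change 0.75, SE 0.18, adjusted p = 0.00747) and from 9.95 ± 1.27 to 19.2 ± 3.64 TPM with poly(dA:dT) (0.88, SE 0.18, adjusted p = 0.00439). The poly(dA:dT) differences were 0.26 (adjusted p = 0.571) under siNC and 0.39 (adjusted p = 0.137) under siQ61K.

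Changes in several comparisons moved with base composition across all genes. UBA7 is a GC-rich transcript, at 58.3% against a median of 48.2% for the tested genes, as are ISG15 at 63.4% and UBE2L6 at 57.2%. Over 14671 genes the log2 change rose with GC content for knockdown without poly(dA:dT) (Spearman rho 0.50) and for poly(dA:dT) under siNC (rho 0.50). The change by poly(dA:dT) under siQ61K fell with GC content (rho -0.57). After a correction for GC content and length the UBA7 knockdown difference in DMSO was 0.42 and no longer passed (adjusted p = 0.102). The UBA7 poly(dA:dT) difference under siQ61K was then 0.70 and passed (adjusted p = 0.0296). The UBE2L6 knockdown difference in DMSO, given below, was called with every other processing tried, at no less than 0.64.

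UBE2L6, the conjugating enzyme, was the most abundant of the 6 genes in every library and rose both with the NRAS siRNA and, under that siRNA, with poly(dA:dT). It read 68.3, 70.0 and 57.6 TPM in siNC DMSO and 71.4, 77.2 and 76.5 in siNC poly(dA:dT). Under siQ61K it read 121.5, 108.9 and 128.2 TPM in DMSO and 211.4, 180.5 and 174.5 with poly(dA:dT). The 4 groups did not overlap. The knockdown difference was 0.87 (SE 0.11, adjusted p = 0.000163) in DMSO and 1.32 (SE 0.11, adjusted p = 5.4e-06) with poly(dA:dT), which is 1.83 and 2.52 times in mean TPM. Poly(dA:dT) raised it by 0.65 under siQ61K (SE 0.11, adjusted p = 0.00412), and the difference under siNC was 0.20 (adjusted p = 0.495). UBE2L3, the nearest relative of UBE2L6 and a carrier of ubiquitin, lay between 65.4 and 80.3 TPM in all 12 libraries and was called in none of the 6 comparisons.

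HERC5, the main human ISG15 ligase, was close to undetected except in siQ61K poly(dA:dT). It read 0.230, 0.524 and 0.634 TPM in siNC DMSO and 1.01, 1.34 and 0.823 in siNC poly(dA:dT). Under siQ61K it read 0.733, 0.765 and 0.903 TPM in DMSO and 9.49, 10.5 and 8.75 with poly(dA:dT). The last group stood clear of all other libraries. HERC5 reached 1 TPM in 5 libraries and entered the test only through that group. The poly(dA:dT) mean was 1.06 ± 0.263 TPM under siNC and 9.59 ± 0.894 under siQ61K (SD, n = 3), 9.07 times higher (log2 change 2.37, SE 0.20, adjusted p = 5.7e-06). In DMSO the siQ61K libraries also lay above the siNC libraries, but by 0.31 (SE 0.20, adjusted p = 0.269). The size on the log scale depends on the pseudocount: the knockdown difference with poly(dA:dT) was 3.09 with a pseudocount of 0.1 and 1.27 with 5, called with each.

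HERC6, the related ligase, differed from HERC5 in being present in every group. It read 5.02, 5.11 and 4.06 TPM in siNC DMSO and 4.06, 3.92 and 6.42 in siNC poly(dA:dT). Under siQ61K it read 4.93, 5.16 and 5.85 TPM in DMSO and 17.5, 15.8 and 16.3 with poly(dA:dT). The first 3 groups overlapped with each other and the last lay above all of them. Knockdown with poly(dA:dT) gave a difference of 1.62 (SE 0.18, adjusted p = 4.7e-05), or 3.45 times in mean TPM. Knockdown without it gave 0.14 (SE 0.18, adjusted p = 0.579). The adjacent ligases were thus raised in the same group, one with and one without a match to the interferon element in the window shown above.

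USP18, the enzyme that removes ISG15, was likewise low in 3 groups and high in siQ61K poly(dA:dT). It read 2.40, 1.07 and 2.04 TPM in siNC DMSO and 4.46, 2.32 and 4.46 in siNC poly(dA:dT). Under siQ61K it read 3.08, 2.02 and 2.58 TPM in DMSO and 30.2, 21.3 and 22.3 with poly(dA:dT). Again the last group was clear of the other 9 libraries, which overlapped. The poly(dA:dT) mean was 3.75 ± 1.23 TPM under siNC and 24.6 ± 4.86 under siQ61K (SD, n = 3), 6.57 times higher (log2 change 2.45, SE 0.25, adjusted p = 2.5e-05). Under siQ61K poly(dA:dT) raised USP18 by 2.84 (SE 0.25, adjusted p = 2.4e-05). Of the 31-base stretches of USP18, 28.8% also occur in USP41, a near copy, so the split of reads between them is uncertain. USP41 was listed at 0 in 10 of 12 libraries. Its other readings, 0.278 TPM and 8.07 TPM, came from the replicate 3 libraries of siQ61K DMSO and siQ61K poly(dA:dT). With both genes summed, the same number of the 6 genes was called in each comparison.

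Counted together, 2 of the 6 genes rose with knockdown without poly(dA:dT), UBA7 and UBE2L6, while 16.6% of all tested genes were called higher and 14.8% lower in that comparison. With poly(dA:dT), 5 of the 6 rose with knockdown, all but ISG15, against 8.71% of all genes called higher and 12.6% called lower. The median difference of the 6 genes was 0.33 without and 1.47 with poly(dA:dT), and that of all tested genes was 0.01 and -0.07. HERC5 is counted here although it entered the test only through siQ61K poly(dA:dT).

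Poly(dA:dT) under the control siRNA called none of the 6 genes in limma, where 0.0747% of all genes were called higher. At an unadjusted p under 0.05 there were 3, ISG15, HERC5 and USP18, with 1640 genes (11.1%) in either direction. The siNC DMSO and siNC poly(dA:dT) libraries did not overlap for ISG15, UBE2L6 and HERC5, and the exact permutation test of 3 libraries against 3 gave its smallest possible p of 0.1 for each. The share of all tested genes without overlap was not counted, so this separation is a description and not a result about the 6 genes. Moreover, ISG15 and HERC5 reached 1 TPM only in poly(dA:dT) libraries. Under siQ61K, poly(dA:dT) raised 4 of the 6, UBE2L6, HERC5, HERC6 and USP18, against 6.92% of all genes. HERC5 again entered the test only through the higher of the groups compared here. HERC5 rose by 2.55 (SE 0.20, adjusted p = 8.2e-06) and HERC6 by 1.48 (SE 0.18, adjusted p = 0.000451). The knockdown and poly(dA:dT) comparisons share libraries, so they are not separate evidence.

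**Figure D3:**
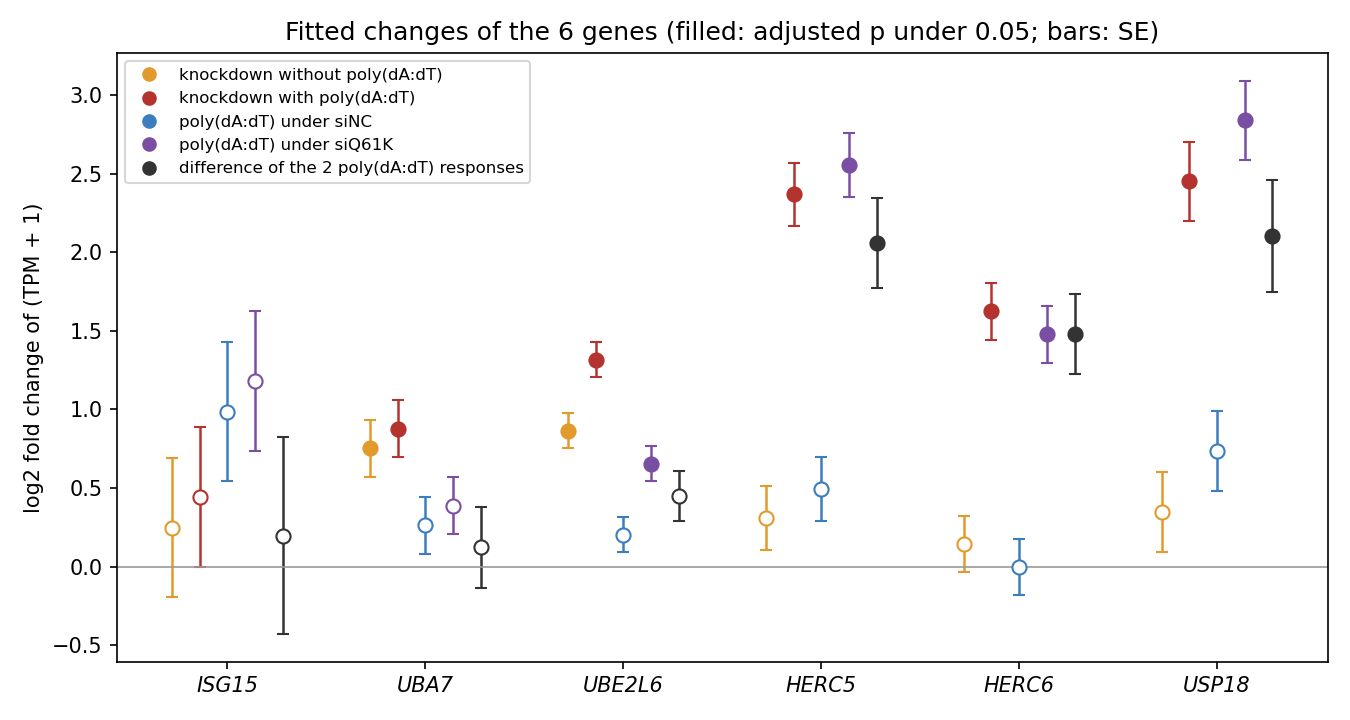
Fitted log2 change of (TPM + 1) with its SE (bars) for each of the 6 genes in 4 pairwise comparisons and the difference of the 2 poly(dA:dT) responses; filled points passed an adjusted p of 0.05. The difference of responses is filled for HERC5, HERC6 and USP18, at 2.06, 1.48 and 2.10.

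A difference in poly(dA:dT) response between the siRNAs was tested directly as an interaction, the response under siQ61K minus that under siNC. It was positive and passed for 3 of the 6 genes, where 6% of all tested genes were called higher. HERC5 is 1 of the 3 and entered the test only through siQ61K poly(dA:dT), the group that makes its interaction positive, so only HERC6 and USP18 can be read against that share. It was 2.06 for HERC5 (SE 0.29, adjusted p = 0.00301), 1.48 for HERC6 (SE 0.25, adjusted p = 0.00737) and 2.10 for USP18 (SE 0.36, adjusted p = 0.00726). It was 0.45 for UBE2L6 (SE 0.16, adjusted p = 0.0649), 0.12 for UBA7 (SE 0.26, adjusted p = 0.774) and 0.20 for ISG15 (SE 0.63, adjusted p = 0.857). The interaction also moved with GC content across all genes (rho -0.65). HERC5 and HERC6 are at 44.1% and 46.3% GC, below the median, and USP18 at 51.6% is above it. After the GC and length correction the interaction was still called for all of HERC5, HERC6 and USP18, while the number of all genes called higher fell from 883 of 14722 to 150 of 14671.

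Between the 2 extreme groups, siNC DMSO and siQ61K poly(dA:dT), all 6 genes were called higher, against 7.23% of all genes, but ISG15 and HERC5 entered the test only through libraries in which they were high. The other 4 genes reached 1 TPM in all 12 libraries. The differences were 1.14 for UBA7, 1.52 for UBE2L6, 2.86 for HERC5, 1.62 for HERC6 and 3.19 for USP18. The ISG15 call (1.43, SE 0.44, adjusted p = 0.0358) rests on a group at 0 and on few readings above 1 TPM, and was lost with no filter on low values (adjusted p = 0.0963). Leaving out 1 library ended it for each siNC DMSO library (adjusted p = 0.0731, 0.0900 and 0.0792 without replicates 1, 2 and 3) and for siQ61K poly(dA:dT) replicates 2 (difference 0.86, adjusted p = 0.140) and 3 (1.54, adjusted p = 0.0584).

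The order of levels changed between groups. In siNC DMSO it ran UBE2L6, UBA7, HERC6, USP18, HERC5 and ISG15, with no overlap between neighbours. In siQ61K poly(dA:dT) USP18 stood next to UBE2L6 by mean, followed by UBA7, HERC6, HERC5 and ISG15. There the range of USP18 overlapped that of UBA7, and that of UBA7 overlapped that of HERC6. Within each of these libraries USP18 was above UBA7, while UBA7 and HERC6 changed order between libraries. Differences of level between genes were not tested. USP18 was the fourth most abundant in DMSO with either siRNA.

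The level of ISG15 relative to each enzyme was compared between the siRNAs within DMSO and within poly(dA:dT), by an exact two-sided permutation of siRNA labels within each agent. The difference, siQ61K minus siNC on the log2(TPM + 1) scale, was averaged over the 2 agents. It was -0.47 for UBA7, -0.75 for UBE2L6, -0.99 for HERC5, -0.54 for HERC6 and -1.06 for USP18. For the last 3 it lay mostly in poly(dA:dT). From siNC to siQ61K the mean ratio to HERC5 went from -0.54 to -0.60 in DMSO and from -0.05 to -1.97 with poly(dA:dT). To HERC6 it went from -2.51 to -2.41 and from -1.52 to -2.71. To USP18 it went from -1.47 to -1.58 and from -1.22 to -3.23. None of the 5 passed (exact permutation p = 0.255, 0.065, 0.05, 0.25 and 0.075, and adjusted over the 5 ratios 0.255, 0.125, 0.125, 0.255 and 0.125). With a pseudocount of 5, 4 of the 5 did. ISG15 did not exceed 4.90 TPM, so with 5 added its term varies little and these ratios mostly follow the enzyme. With a pseudocount of 1, each value is the ISG15 knockdown difference minus that of the enzyme, averaged over the agents. ISG15 was at 0 in most DMSO libraries, so there too the ratios mostly follow the enzyme. The ratios are therefore not separate from the enzyme changes above, and HERC5 entered the test only through siQ61K poly(dA:dT).

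Among 10 tested genes of the wider pathway (other ligases, proteases and binding partners), TRIM25, a ubiquitin ligase that is itself a target of ISG15 and can act as an ISG15 ligase, was called higher with knockdown in both agents. It read 18.2, 22.1 and 23.8 TPM in siNC DMSO against 32.5, 32.1 and 47.7 in siQ61K DMSO (log2 change 0.76, adjusted p = 0.00832). In poly(dA:dT) libraries it read 20.1, 21.2 and 28.6 TPM under siNC against 47.9, 34.7 and 39.2 under siQ61K (0.78, adjusted p = 0.0104). The groups did not overlap, and the interaction was 0.02 (adjusted p = 0.974). In DMSO, USP14, USP16 and SKP2 fell by 0.51, 0.45 and 0.42. The list's 1 higher and 3 lower calls in DMSO stand beside 16.6% and 14.8% of all genes, and its 1 higher call with poly(dA:dT) beside 8.71%. The list's median difference was -0.21 in DMSO and -0.02 with poly(dA:dT).

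UBA7 was set beside the activating enzymes of other modifiers. Of 9 tested E1 genes for other modifiers, 2 were called higher and 4 lower with knockdown without poly(dA:dT), beside 16.6% and 14.8% of all genes, so the count of higher genes is near the background. Among the latter, UBA2 of the SUMO cascade fell by 0.63, and UBA3 and NAE1 of the NEDD8 cascade fell by 0.62 and 0.59. MOCS3 and UBA1, the main ubiquitin E1, rose by 0.50 and 0.32. With poly(dA:dT) none was called higher and SAE1, the partner of UBA2, fell by 0.31. Of the 4 tested relatives of HERC5 and UBE2L6, HERC4 fell by 0.67 with knockdown in DMSO and none was called with poly(dA:dT).

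**Figure D4:**
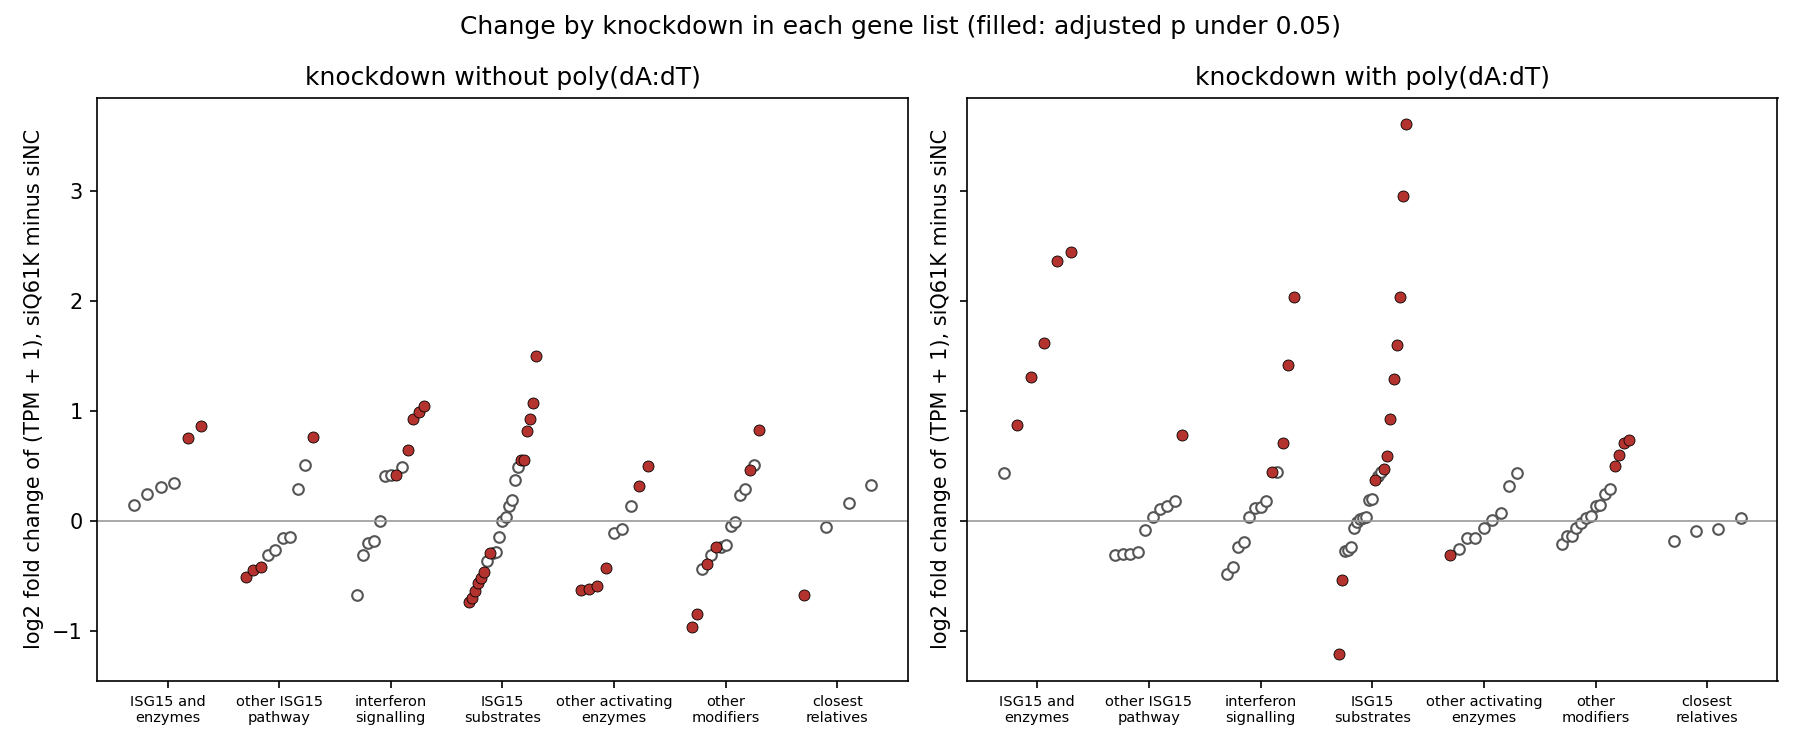
log2 change of (TPM + 1), siQ61K minus siNC, of each tested gene (1 point per gene) in 7 gene lists, without poly(dA:dT) on the left and with it on the right; filled points passed an adjusted p of 0.05. With poly(dA:dT), 5 of the 6 genes of the ISG15 cascade are filled and positive, and of the other activating enzymes only SAE1 is filled, at -0.31.

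Transcription factors of the interferon response differed in their pattern. STAT2 rose with knockdown by 0.64 in DMSO and 1.42 with poly(dA:dT) (interaction 0.78, adjusted p = 0.0235). IRF9 rose with poly(dA:dT) under both siRNAs, by 1.55 and 1.58 (interaction 0.03, SE 0.19, adjusted p = 0.938), and with knockdown by 0.42 and 0.44. Across the 13 tested genes of interferon signalling, 5 were called higher with knockdown in DMSO and 4 with poly(dA:dT), and none lower in either. Over all tested genes 16.6% were called higher and 14.8% lower in DMSO, and 8.71% and 12.6% with poly(dA:dT). IRF1 was higher with knockdown in both, by 1.05 in DMSO and 0.71 with poly(dA:dT). The interaction was called higher for 2 of the 13 genes and lower for 2, beside 6% and 12.1% of all genes. The lower ones were IRF3 (-0.89, adjusted p = 0.0223) and SOCS3 (-1.23, adjusted p = 0.0256). These 2 rose with knockdown in DMSO, by 0.93 and 0.99, and fell with poly(dA:dT) under siQ61K, by 0.54 and 1.04. The interferon genes themselves stayed below the test's minimum: IFNB1 was at 0 in 10 of 12 libraries (highest 0.226 TPM) and IFNL1 in 11 (highest 0.356 TPM).

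Proteins known to carry ISG15 were represented by 23 genes, of which 9 were called higher and 2 lower with knockdown in poly(dA:dT), and 6 higher and 7 lower in DMSO. Over all tested genes the shares were 8.71% higher and 12.6% lower with poly(dA:dT), and 16.6% higher and 14.8% lower in DMSO. Among the 4 with the largest difference in poly(dA:dT) were genes that are interferon-stimulated themselves: IFIT1 (3.61), MX1 (2.96) and DDX58, the RNA sensor RIG-I (1.61). DDX58 was lower with knockdown in DMSO, at -0.63. The 2 that fell were STING1, the adaptor of cytosolic DNA sensing, at -1.21, and CCND1, a cell cycle regulator, at -0.53. The list's median difference was 0.20 against -0.07 for all tested genes.

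Likeness of profile was measured over the 12 libraries by Pearson's r of log2(TPM + 1) against 14721 other tested genes. The points fall in 4 groups, so r reflects group differences as well as scatter between libraries, and it is given as a description. The genes nearest to HERC5 were LAP3, IFI44L and RSAD2 (r = 0.989, 0.989 and 0.983), those nearest to HERC6 were SAMHD1, GBP3 and SAMD9L (0.988, 0.982 and 0.981), and those nearest to USP18 were DDX60, IFIT3 and PLSCR1 (0.985, 0.983 and 0.983). HERC5, HERC6 and USP18 each had the other 2 among their 34 nearest genes. UBA7 was nearest to UBE2L6 (0.953), then C4A and CD83 (both 0.935). UBE2L6 was nearest to C4A, PDLIM1 and H2AC6 (0.973, 0.971 and 0.966), with UBA7 at place 9. ISG15 was nearest to AC090181.2, AC060766.3, RPL27, ALKBH3 and AC005291.1 (0.892 to 0.828), and the nearest of its own enzymes was HERC5, at place 161 (0.647). With ISG15 at 0 in 5 of 12 libraries and highest in a single reading of 4.90 TPM, its order rests on few values. Its places are therefore not comparable with those of the enzymes.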

How the data were processed

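The deposited table holds TPM values made by the authors, with 1 column per library and rows named by gene symbol, some symbols on more than 1 row. Per the submitters' processing notes, Salmon 0.8.0 and hg19 were used; how transcripts were summed, and under which annotation, is not given in the sources used here. Per the labels' protocols, total RNA went into a NEBNext Ultra kit and an Illumina NovaSeq. TPM keeps no depth, so depth and counting intervals are unknown. The labels do not state strand.

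From these values, log2(TPM + 1) was fitted with limma 3.58.1 in R 4.3.3, allowing a variance trend, for the 14722 genes that reached 1 TPM in 3 or more of 12 libraries; 984 entries sharing 58 symbols were left out. The fit was tested on simulated data. Replicates correlated at 0.966 to 0.984. GC content, length, gene copies and overlaps came from GENCODE release 29, promoters from RefSeq (GRCh38.p14), so no gene coordinates are given.

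The genes and lists were chosen with earlier results of these data known. Named in every group were the 6 genes, NRAS, STAT2, IRF9, IFNB1, IFNL1, USP41 and UBE2L3; for each list, up to 4 called genes by size of change; and the genes with the most similar profile. Some genes that this rule covers are not reported here. IFI6, ACTB, ACTG1, RPS27 and other list genes were named after their values were seen. Alternatives were other pseudocounts, filters, scalings, a GC and length correction, a block for replicate number, and removal of single libraries.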

Additional observations from a re-analysis of the deposited data

Results flagged for a closer look

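For 3 of the 6 genes the siRNAs gave different poly(dA:dT) responses by the test of the difference itself (the interaction in limma), where 6% of all tested genes were called higher. HERC5 entered the test only through siQ61K poly(dA:dT), so only HERC6 and USP18 can be read against that share. The response under siQ61K minus that under siNC was 2.06 for HERC5, 1.48 for HERC6 and 2.1 for USP18, in log2(TPM + 1).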

How the results depend on the processing

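The calls of HERC5, HERC6 and USP18 in the interaction, and those for knockdown with poly(dA:dT), held under each alternative in which they were tested; a mean filter of 5 TPM leaves HERC5 and ISG15 out. Removing single libraries gave 2 to 2 genes called for knockdown in DMSO, 5 to 5 for knockdown in poly(dA:dT), 0 to 0 and 4 to 5 for poly(dA:dT) under siNC and siQ61K, 3 to 4 for the interaction, 5 to 6 between the extreme groups, and 0 to 0 ratios. Removing a pair, siQ61K DMSO 3 with siQ61K poly(dA:dT) 2, was added after seeing the data and gave 2, 5, 0, 4, 3 and 5. With the GC and length correction, alone or with the replicate block, 1 gene was called for knockdown in DMSO (UBA7 adjusted p = 0.130 with the block). With a pseudocount of 5, 4 of 5 ratios passed, but such ratios mostly follow the enzyme because the ISG15 term then varies little.

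Signs turned only for values that were not called, and the cause was not tested. ISG15 knockdown in DMSO was -0.13 with the GC correction, alone or with the block. In poly(dA:dT) it ranged from -0.13 to 0.90 over single libraries and was -0.13 without the pair. The ISG15 interaction was -0.37 with a pseudocount of 0.1, -0.49 without the pair and -0.37 to 0.65 over single libraries. HERC6 under siNC (-0.0035) was 0.0028 with a pseudocount of 5, 0.0517 with median-of-ratios scaling, 0.0674 with quantile normalization, 0.0729 with the GC correction (alone or with the block), and -0.19 to 0.10 over single libraries. The UBA7 interaction ran from -0.0098 to 0.27.

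Under median-of-ratios and quantile scaling UBA7 was called for poly(dA:dT) under siQ61K (0.54 and 0.55), as was the UBE2L6 interaction (0.55 and 0.53), also called without siNC DMSO 3 (0.54). They moved the median of all genes under siQ61K from -0.15 to -0.008 and -0.005, and between extreme groups from -0.13 to -0.002 and -0.017. The share of calls that were higher went from 27.5% to 52.6% and 47.7%, and from 33.0% to 50.3% and 48.9%; in the interaction from 33.2% to 47.5% and 46.5%, and for knockdown in poly(dA:dT) from 40.8% to 51.3% and 51.2%. The ISG15 call between extreme groups was lost in 9 alternatives (adjusted p 0.0584 to 0.140).

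Over all genes, counts moved by over 1.5 times. Knockdown in DMSO (4632) gave 3045 to 4998 over single libraries. Poly(dA:dT) under siNC (18) gave 30 with the GC correction, 34 with only the groups compared and 7 to 37 over single libraries. Poly(dA:dT) under siQ61K (3712) gave 2328 unfiltered, 1668 GC-corrected (1550 with the block), 137 without the pair and 1628 to 4608. The interaction (2662) gave 1026, 284 (216), 550 and 980 to 3886; its higher calls, 883, were 1353 and 1426 under the scalings and 150 GC-corrected. The extreme groups (3232) gave 1919 to 3506.

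Whether replicate numbers pair the samples was not settled. Of 18 same-number pairs, 3 had a correlation over 0.1 (-0.26 to 0.23). Between siNC poly(dA:dT), siQ61K DMSO and siQ61K poly(dA:dT) every same-number pair was positive (0.04 to 0.23), and most pairs with siNC DMSO were negative. A library correlated best with its own number 19 of 36 times, more than an even pick among 3 libraries would give. A shared batch was not tested. With the replicate block, 2 genes were called for knockdown in DMSO, and the ISG15 response under siQ61K (1.18) was called (adjusted p = 0.0469; 0.0495 with the GC correction as well). Depth is unknown, so a listed 0 sets no upper limit.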

Other observations

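Other ubiquitin-like modifiers were measured beside ISG15. Of 15 tested, 4 were called higher and none lower with knockdown in poly(dA:dT): RPS27A, a ubiquitin precursor, by 0.74, GABARAP and MAP1LC3B, which mark autophagy membranes, by 0.71 and 0.60, and UBL5 by 0.50. Over all tested genes 8.71% were higher and 12.6% lower. In DMSO 2 were higher and 4 lower, beside 16.6% and 14.8% of all genes; ATG12, which acts in autophagosome formation, and UFM1 fell by 0.97 and 0.84, and URM1 rose by 0.83. The list's median difference was 0.13 with poly(dA:dT) and -0.22 in DMSO. UBD (FAT10) did not pass the minimum level.

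Number format differed between the 6 genes in the deposited table. Of the 7 ISG15 values above 0, none was written with more than 6 significant digits, and the same held for the 12 USP18 values. UBA7 and UBE2L6 had more in 12 of 12 libraries, HERC6 in 11 and HERC5 in 9. Of 3605 genes with 1 transcript in GENCODE release 29, 97.9% never had more than 6 digits, against 9.06% of 1292 genes with 4 transcripts. ISG15 has 4 transcripts there and USP18 has 1. The genes counted were not matched to ISG15 for level, and the reason for the format was not tested.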
